A study of Mus musculus with 8 samples.

Results

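The 10 growth factor receptor tyrosine kinases described here are the EGF receptor family members Egfr, Erbb2 and Erbb3, the HGF receptor Met, the FGF receptors Fgfr1, Fgfr2, Fgfr3 and Fgfr4, and the insulin receptor family members Igf1r and Insr. They were chosen by name from the 46603 genes of the count table, with earlier results of these data known, and all 10 were found in it. Their mRNAs were compared between label-retaining (LLRC) and non-label-retaining (non-LRC) epithelial cells sorted from the livers of 4 mice. RNA was sequenced from 8 libraries, 1 LLRC and 1 non-LRC library of each mouse. All mice were R26rtTA heterozygous and H2B-EGFP heterozygous, on a mixed background of C57BL/6 and CBA. They received doxycycline from postnatal day 0 to 5 through their nursing mothers and were 8 weeks old at the sort. The LLRC gate was EGFP-positive, EpCAM-positive and CD45-negative, and the non-LRC gate differed from it only in being EGFP-negative. The transactivator rtTA was driven from the Rosa26 locus, which is active in all tissues, so the histone label itself was not restricted to biliary cells. The study states that hematopoietic cells of such mice can express the label without doxycycline. Leukocytes were depleted with CD45 beads before the sort.

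Receptor tyrosine kinases are single-pass membrane proteins that signal as dimers. When a growth factor binds, the partners phosphorylate each other and pass the signal through adaptor proteins to the RAS-ERK and PI3K-AKT pathways. In the liver, EGF receptor and MET drive hepatocyte growth during regeneration, FGFR4 receives the intestinal FGF15 signal that lowers bile acid synthesis, and the insulin receptor controls glucose and lipid metabolism. Cholangiocytes, the epithelial cells of the bile ducts, respond to ligands of the same families when ducts grow.

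The LLRC libraries held between 7860021 and 9851819 counts on genes and the non-LRC libraries between 4670132 and 8056103, and 3 counts, taken as the floor, were 0.291 to 0.627 CPM depending on the library (CPM, the usual unit of counts scaled for depth, here with TMM factors). The libraries were checked against the gate by the markers of 6 cell types. Epcam stood between 547.2 and 651.5 CPM in LLRC and between 432.5 and 765.5 CPM in non-LRC libraries, and Krt19, the cholangiocyte keratin, between 89.1 and 143.7 CPM and between 94.6 and 172.4 CPM. Alb, the hepatocyte secretory product albumin, was read at between 2091 and 2542 CPM in LLRC and between 1506 and 2786 CPM in non-LRC libraries, so hepatocyte transcripts were present in both sorts. The summed level of 12 endothelial markers was between 34.1 and 66.7 CPM in LLRC and between 223.2 and 954.5 CPM in non-LRC libraries, and 10 of the 12 were lower in the LLRC library of all 4 mice. The non-LRC libraries of JV621 and JV6314 stood apart. JV621 had 14234 genes with a count, the fewest of the 8 libraries. In JV6314, 11 pancreatic acinar markers summed to 2137 CPM, against between 2.13 and 23.7 CPM elsewhere, and Cpb1, an acinar enzyme, had 1388 counts there and no more than 1 elsewhere. Fold changes without these 2 libraries are given with each receptor.

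To show the DNA in front of transcription starts of the receptors, the windows of 250 bases before the start in RefSeq (GRCm38.p6) were read. Entries were found for 7 of the 10 receptors, 8 windows in all, and the receptors without one are Erbb3, Fgfr1 and Insr. Fgfr3 had 2 windows, which ended 50 and 632 bases past the GENCODE gene start. The Fgfr2 window lay 2856542 bases past the start of its gene, inside it, with 44.0% G+C and 2 CpG dinucleotides. The Igf1r window ended 570 bases before the gene start. Printed here are the parts that lie before the GENCODE gene start for Met, the receptor with the highest level per length in these cells, for Igf1r, the one with the lowest, and for Egfr and Erbb2, members of 1 family that both lie on chromosome 11. They lie at chr6:17463707-17463799, chr7:67952007-67952256, chr11:16751953-16752202 and chr11:98412234-98412469, all on the plus strand. Capitals mark the GC box GGGCGG and the CCAAT box on either strand.
Met: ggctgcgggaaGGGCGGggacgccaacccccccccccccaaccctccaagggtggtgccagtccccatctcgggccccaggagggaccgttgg
Igf1r: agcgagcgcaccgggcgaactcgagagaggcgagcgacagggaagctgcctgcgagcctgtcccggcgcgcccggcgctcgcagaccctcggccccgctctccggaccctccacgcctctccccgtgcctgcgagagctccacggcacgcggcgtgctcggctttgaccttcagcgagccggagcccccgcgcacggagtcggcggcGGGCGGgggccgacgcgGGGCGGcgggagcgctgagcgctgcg
Egfr: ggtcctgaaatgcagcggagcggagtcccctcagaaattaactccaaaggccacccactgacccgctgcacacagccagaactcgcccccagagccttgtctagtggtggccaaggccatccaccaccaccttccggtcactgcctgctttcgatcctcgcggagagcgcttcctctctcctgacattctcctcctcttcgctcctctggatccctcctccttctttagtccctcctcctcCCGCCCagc
Erbb2: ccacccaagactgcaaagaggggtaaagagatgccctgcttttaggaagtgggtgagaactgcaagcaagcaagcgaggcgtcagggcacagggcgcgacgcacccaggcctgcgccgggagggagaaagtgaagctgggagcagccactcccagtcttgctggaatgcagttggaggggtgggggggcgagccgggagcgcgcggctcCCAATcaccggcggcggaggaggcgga
The GC box is the binding motif of SP1-type factors, and it was in 6 of the 8 windows and in 32.7% of all 32851 promoter windows of the same length. The whole Igf1r window was 77.6% G+C with 42 CpG dinucleotides and 2 GC boxes, and the whole Met window 74.0% G+C with 24 CpG and 3 GC boxes, against a median of 52.4% G+C and 6 CpG over all windows. The highest and the lowest receptor thus both had windows rich in CpG and in GC boxes. CCAAT was in 2 of the 8 windows and in 33.8% of all. The letters TATAAA were in 0 of the 8 and in 12.4% of all. A match is a description of the letters and does not show that a factor binds there.

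The main comparison asked whether the receptors differ between LLRCs and non-LRC cells. None of the 10 did by the test used. All 10 passed the expression filter, and 0 of 10 had an adjusted p below 0.05 in edgeR's quasi-likelihood test, as did 0 of all 13605 genes tested (0%). At an unadjusted p below 0.05 there were 0 of the 10, beside 702 genes (5.16% of those tested). The fitted log2 fold change (LLRC over non-LRC) was positive for 5 receptors and negative for 5, with a median of -0.01, and the median of all genes tested was -0.01. Every receptor had overlapping groups. LLRC libraries lay all above the non-LRC libraries in 2.15% and all below in 1.91% of the genes tested. No receptor moved the same way in all 4 mice, while 7.74% of all genes were higher and 5.53% lower in the LLRC library of every mouse. The adjusted p was 0.9999 for each of the 10, which leaves each receptor with a wide interval and does not show that the groups were alike. In bulk libraries, fewer cells of a type and less RNA per cell cannot be told apart.

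**Figure D1:**
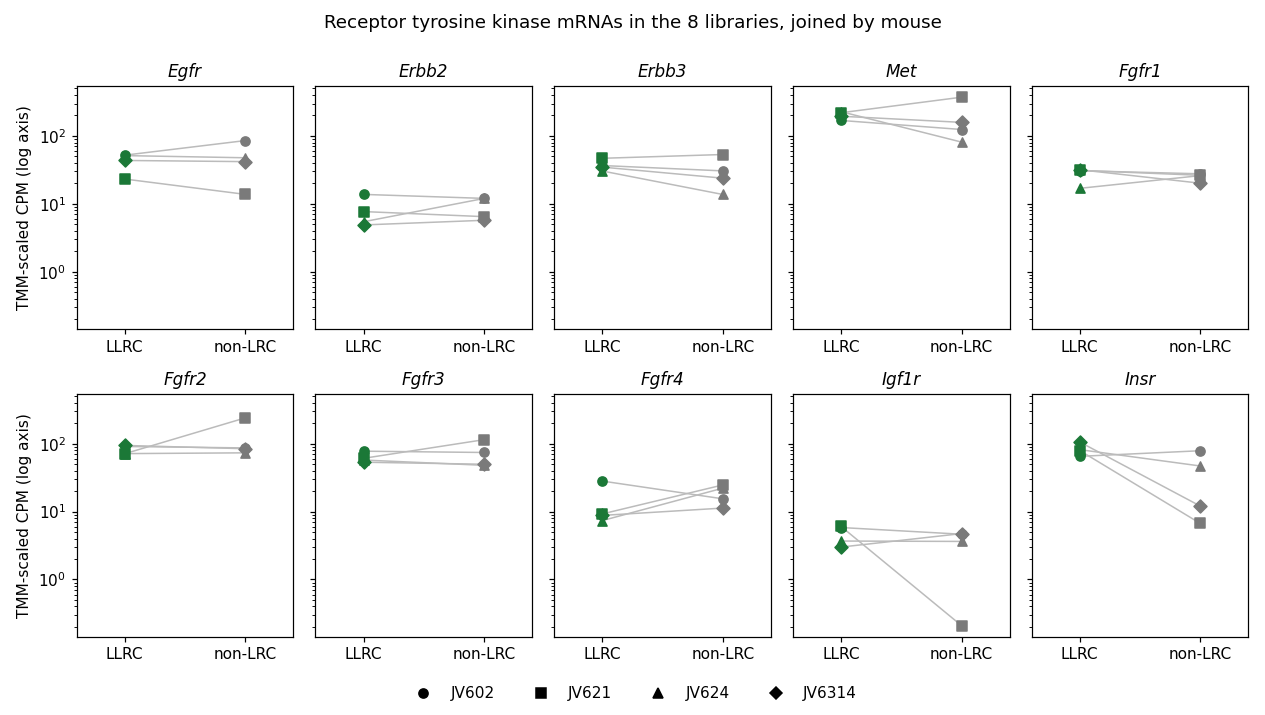
Each panel plots 1 receptor as TMM-scaled CPM on a log axis, with the LLRC libraries in green, the non-LRC libraries in grey, 1 symbol for each mouse and a line joining the 2 libraries of a mouse. The groups overlap in all 10 panels, and the non-LRC library of JV621 (square) is at the bottom for Insr at 6.68 CPM and at the top for Met at 371.9 CPM.

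Of the EGF receptor family, Egfr (chromosome 11, 16752203 to 16918158, plus strand, GRCm38) binds EGF, TGF-alpha, amphiregulin and related ligands. With the mice always in the order JV602, JV621, JV624, JV6314, its LLRC libraries had 52.1, 23.2, 51.3 and 43.5 CPM. Its non-LRC libraries had 85.4, 13.8, 47.7 and 41.8 CPM. JV621 was the lowest mouse in both sorts, and JV602 gave the highest of the 8 values, in its non-LRC library. By an exact two-sided permutation test of mean log2 CPM, 4 against 4 libraries and not paired by mouse, p was 0.857. The log2 fold change of -0.15 had a standard error of 0.52 and a 95% interval from -1.32 to 1.02. Its sign was not stable, since leaving out non-LRC JV602 turned it to 0.30 and taking the mouse as a block turned it to 0.05. With the non-LRC libraries of JV621 and JV6314 left out it was -0.64 (unadjusted p = 0.155 by edgeR).

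Erbb2 (chromosome 11, 98412470 to 98437716, plus strand) encodes the family member that has no ligand of its own and serves as dimer partner. Its values were low, at 13.8, 7.69, 5.44 and 4.89 CPM in the LLRC and 12.02, 6.47, 12.00 and 5.72 CPM in the non-LRC libraries. Both libraries of JV602 were high, and the groups overlapped over most of their range. Its log2 fold change was -0.19 (standard error 0.51, 95% interval -1.35 to 0.97, exact permutation p = 0.629). With 1 library left out at a time it lay between -0.59 (LLRC JV602 left out) and -0.01 (LLRC JV6314 left out), and it was -0.58 without non-LRC JV621 and JV6314.

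Erbb3 (chromosome 10, 128567523 to 128589652, minus strand) encodes the neuregulin receptor with a weak kinase, which signals through its partners. In LLRC libraries it was read at 36.6, 46.8, 30.4 and 34.8 CPM, and in non-LRC libraries at 30.6, 53.2, 13.7 and 23.9 CPM. It was higher in the LLRC library of 3 of 4 mice, with JV621 the exception. The log2 fold change was 0.29 (standard error 0.43, 95% interval -0.67 to 1.26, exact permutation p = 0.371). The size depended on single libraries, at 0.72 without non-LRC JV621 (unadjusted p = 0.0690 by edgeR) and 0.04 without non-LRC JV624, and it was 0.75 (unadjusted p = 0.0969) without non-LRC JV621 and JV6314. The ratio of Erbb3 to Erbb2 per length was above 1 in 7 of 8 libraries, between 0.991 and 7.12. The mean log2 ratio was 2.13 in LLRC and 1.45 in non-LRC libraries (exact permutation p = 0.371).

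Met (chromosome 6, 17463800 to 17573980, plus strand), the only receptor for HGF, had the most counts of the 10 in every library, between 1548 and 1856 in LLRC and between 514 and 1781 in non-LRC libraries. The LLRC libraries had 169.1, 219.5, 227.7 and 195.0 CPM. The non-LRC libraries had 124.4, 371.9, 81.1 and 158.4 CPM. The 4 LLRC libraries lay close together inside the span of the non-LRC libraries, 3 of which were below all LLRC libraries and 1, JV621, above them. The log2 fold change was 0.14 (standard error 0.44, 95% interval -0.85 to 1.14, exact permutation p = 0.486). The value depended on single non-LRC libraries. Without JV621 the log2 fold change was 0.75 with an unadjusted p of 0.0273 and an adjusted p of 0.474 in the same edgeR test, and without JV621 and JV6314 it was 0.99 (adjusted p = 0.444). The sign turned without JV624, at -0.11, and without JV602, at -0.01.

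**Figure D2:**
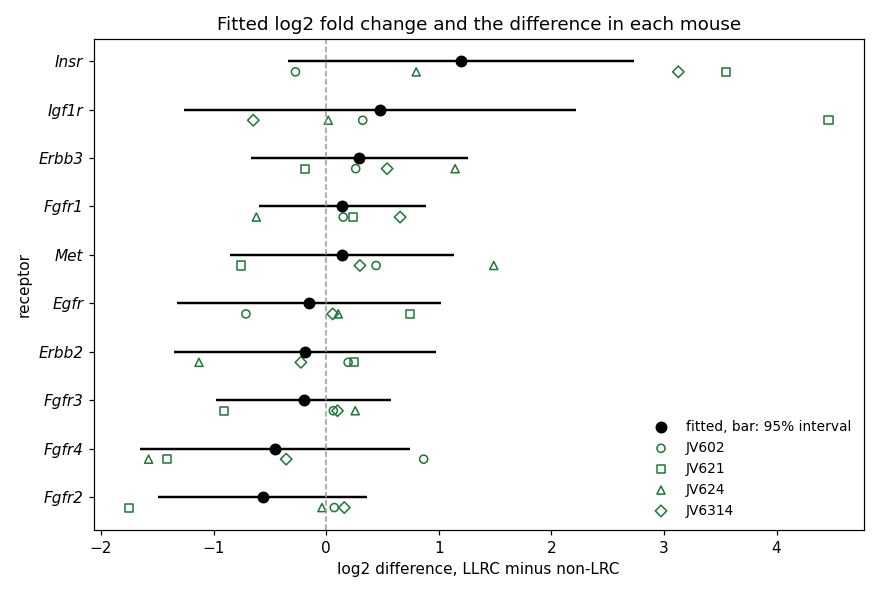
Black points are the fitted log2 fold changes, LLRC over non-LRC, with 95% intervals as bars, and open green symbols the log2 difference in each of the 4 mice. Every interval crosses 0, from Fgfr2 at -0.56 to Insr at 1.20, and the widest scatter over mice is that of Igf1r, with JV621 at 4.46.

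The 4 FGF receptors bind the fibroblast growth factors with heparan sulphate or a klotho protein as cofactor. Fgfr1 (chromosome 8, 25513654 to 25575718, plus strand) is the form usually prominent in mesenchymal cells. Its LLRC libraries had 30.7, 31.1, 16.9 and 31.8 CPM and its non-LRC libraries 27.7, 26.3, 26.04 and 20.1 CPM. The LLRC library of JV624 was the low one, and the other 3 LLRC libraries lay above every non-LRC library. Its log2 fold change was 0.14 (standard error 0.33, 95% interval -0.60 to 0.88, exact permutation p = 0.657), the smallest standard error of the 10. It was 0.33 without the low LLRC library of JV624, 0.06 without non-LRC JV6314 and 0.05 without non-LRC JV621 and JV6314. An antisense gene, Gm16159, shares 1.66% of the annotated exon bases of Fgfr1, and the counting did not use strand.

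Fgfr2 (chromosome 7, 130162451 to 133123350, minus strand) is the receptor whose epithelial splice form answers FGF7 and FGF10. It stood at 90.9, 71.1, 71.3 and 94.1 CPM in LLRC libraries. The non-LRC libraries had 86.5, 239.7, 73.2 and 84.3 CPM. All libraries but the non-LRC library of JV621 lay between 71.1 and 94.1 CPM, and that library, with 1148 counts, was alone above them. The log2 fold change of -0.56 (standard error 0.41, 95% interval -1.49 to 0.37, exact permutation p = 0.571) was 0.02 without it, and 0.05 without it and non-LRC JV6314. The exons of Fgfr2 share 3.04% of their bases with Ctbp2 on the same strand, and union counting leaves out reads that fall on both.

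Fgfr3 (chromosome 5, 33721674 to 33737068, plus strand) followed the same pattern. It had 77.5, 60.8, 57.4 and 53.3 CPM in LLRC and 74.1, 114.4, 48.0 and 49.7 CPM in non-LRC libraries, with JV621 again the highest of the 8. Its log2 fold change of -0.20 (standard error 0.34, 95% interval -0.97 to 0.57, exact permutation p = 0.743) was 0.13 without that library, and 0.04 without it and non-LRC JV6314. An unconfirmed gene model on the opposite strand, G630022F23Rik, shares 13.9% of the exon bases of Fgfr3, and union counting without strand leaves out reads that fall on both.

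Fgfr4 (chromosome 13, 55152640 to 55168759, plus strand), the FGF receptor of hepatocytes, was read at 28.1, 9.23, 7.35 and 8.77 CPM in LLRC and 15.4, 24.6, 22.1 and 11.2 CPM in non-LRC libraries. The LLRC library of JV602, with 290 counts, was the highest of the 8, while the other 3 LLRC libraries lay below all 4 non-LRC libraries. The log2 fold change was -0.45 (standard error 0.53, 95% interval -1.65 to 0.74, exact permutation p = 0.257). Without the LLRC library of JV602 it was -1.11 (unadjusted p = 0.0410, adjusted p = 0.9996 in the same edgeR test). The other single omissions gave between -0.62 and -0.24, with LLRC JV624 left out at the upper end, and omitting non-LRC JV621 and JV6314 gave -0.47. The summed level of 12 hepatocyte markers was between 2984 and 3460 CPM in LLRC and between 2223 and 6847 CPM in non-LRC libraries, with JV621 the lowest and JV624 the highest of the 8. Alb, the marker with the highest mean level, had a log2 fold change of 0.01, while the median of the 12 markers was -1.57 and 5 of them were lower in the LLRC library of all 4 mice. The part of hepatocyte RNA in the values of Fgfr4 was not tested. Klb, which encodes the klotho cofactor of FGFR4, did not pass the filter. It had 47, 2, 1 and 11 counts in LLRC and 0, 0, 5 and 0 counts in non-LRC libraries.

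In the insulin receptor family, Insr (chromosome 8, 3122061 to 3279617, minus strand) had the largest fitted fold change of the 10. It encodes the insulin receptor. The LLRC libraries had 65.0, 79.1, 81.6 and 105.7 CPM. In the non-LRC libraries it stood at 78.6, 6.68, 46.9 and 12.04 CPM, or 628, 32, 297 and 61 counts. The LLRC libraries were all above 3 of the 4 non-LRC libraries, and JV602 made the groups overlap. The log2 difference in the 4 mice was -0.27, 3.55, 0.80 and 3.13. The fitted log2 fold change was 1.20, or 2.29-fold, with a standard error of 0.68 and a 95% interval from -0.34 to 2.73 (unadjusted p = 0.113, adjusted p = 0.9999 in edgeR's quasi-likelihood test). The exact permutation p, which ignores the pairing by mouse, was 0.0571, where 4 against 4 libraries allow no less than 0.0286.

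Both non-LRC libraries in which Insr was low are the ones that stood apart in the check of the libraries. Without them its log2 fold change was 0.41 (unadjusted p = 0.251), still positive. With the mouse as a block it was 1.80 (unadjusted p = 0.0660, adjusted p = 1 by edgeR), and with JV602 left out of the non-LRC group 1.91 (unadjusted p = 0.0200, adjusted p = 0.399). It was positive under all 19 alternatives run, between 0.41 and 1.91. The part of these libraries' makeup in the result was not tested.

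Igf1r (chromosome 7, 67952827 to 68233668, plus strand) encodes the IGF-1 receptor, the closest relative of the insulin receptor. It was at the low end in all libraries, at 5.82, 6.03, 3.68 and 3.00 CPM in LLRC and 4.63, 0.209, 3.63 and 4.74 CPM in non-LRC libraries. The non-LRC library of JV621 held 1 count of it, under the floor of 3 counts, and the remaining 7 libraries held between 23 and 60 counts. The log2 fold change was 0.48 (standard error 0.77, 95% interval -1.26 to 2.22, exact permutation p = 0.400), the widest interval of the 10. Without that library it was 0.11, and without it and non-LRC JV6314 it was 0.18. Per length, Insr exceeded Igf1r in 8 of 8 libraries, with a ratio between 3.11 and 43.1. The mean log2 ratio was 4.49 in LLRC and 3.82 in non-LRC libraries, which did not differ beyond the spread of the libraries (exact permutation p = 0.543).

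Levels of different receptors were compared as CPM per kilobase of the union of annotated exons. In LLRC libraries Met came first at 26.4 ± 3.44 CPM per kilobase (SD, n = 4), followed by Fgfr3 at 8.69 ± 1.48, Fgfr2 at 7.93 ± 1.20, Erbb3 at 6.18 ± 1.15 and Insr at 6.03 ± 1.23. Below these were Fgfr4 at 3.77 ± 2.78, Egfr at 3.75 ± 1.19, Fgfr1 at 2.80 ± 0.72, Erbb2 at 1.52 ± 0.78 and Igf1r at 0.276 ± 0.091. Met was thus the main receptor mRNA of LLRCs and Igf1r the rarest. In non-LRC libraries the order was Met at 24.0 ± 16.8, Fgfr2 at 11.7 ± 7.69, Fgfr3 at 9.999 ± 4.33, Fgfr4 at 5.18 ± 1.73, Erbb3 at 5.05 ± 2.79, Egfr at 4.17 ± 2.60, Insr at 2.62 ± 2.44, Fgfr1 at 2.54 ± 0.34, Erbb2 at 1.74 ± 0.66 and Igf1r at 0.197 ± 0.126.

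By the exon union, Met was above Fgfr2, Fgfr3 above Erbb3, Fgfr1 above Erbb2 and Erbb2 above Igf1r in each of the 8 libraries. By the same length, Fgfr2 and Fgfr3, and the neighbours among Erbb3, Fgfr4, Insr, Egfr and Fgfr1, changed places between libraries. They were not separated beyond their spread. Met made up between 23.1% and 45.5% of the summed receptor level per length, and the 10 receptors took between 0.0447% and 0.0696% of all counts of a library. The length used matters for the order. With the longest annotated transcript in place of the exon union, Met was above Fgfr2 in 6 of 8 libraries and Fgfr2 above Fgfr3 in 8 of 8. Fgfr2 in LLRC libraries then came to 18.5 and Met to 29.8 CPM per kilobase. In non-LRC libraries Fgfr2 stood at 27.3 ± 17.9 and Met at 27.0 ± 19.0. In LLRC libraries Insr then came to 8.86 and moved from the fifth to the fourth place, and Fgfr1 came to 5.48, above Egfr and Fgfr4.

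**Figure D3:**
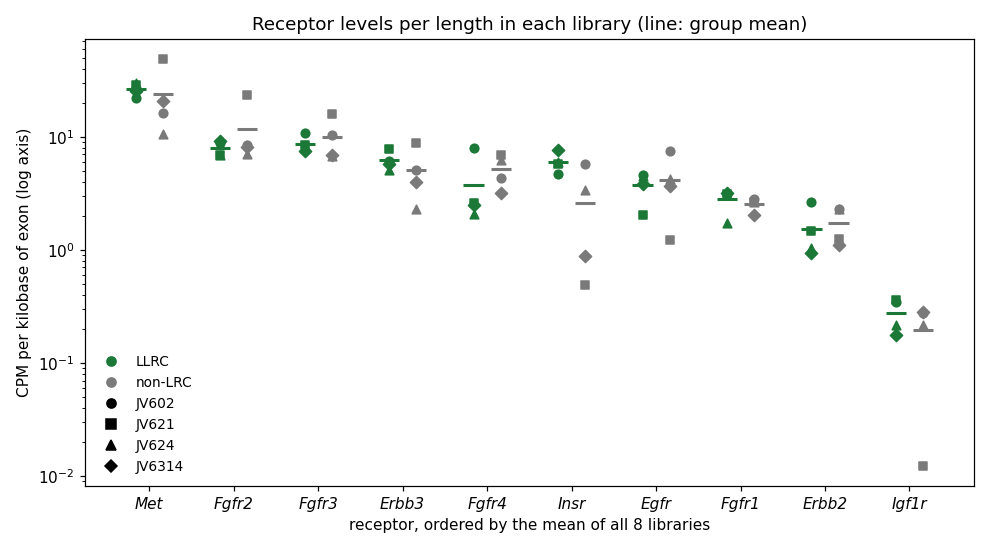
Each point is the level of a receptor in 1 library as CPM per kilobase of exon on a log axis, LLRC in green and non-LRC in grey, with a line at each group mean and receptors ordered by the mean of the 8 libraries. Met lies at the top, between 10.6 and 48.4, and Igf1r at the bottom, between 0.0124 and 0.359.

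Most receptors varied less among LLRC than among non-LRC libraries. The SD of log2 CPM was larger in the non-LRC group for 7 of 10 receptors, the exceptions being Erbb2, Fgfr1 and Fgfr4, with a median of 0.36 in LLRC and 0.80 in non-LRC libraries. Over all genes tested the SD was larger in the non-LRC group for 83.4%, with medians of 0.46 and 0.96, so a wider spread of the non-LRC libraries was common to most genes. For Met the SD was 0.19 against 0.92, and for Insr 0.29 against 1.65. The non-LRC library of JV621 was the highest of its group for 5 receptors and the lowest for 3, that is, at an extreme for 8 of 10, beside 73.2% of all genes tested. Its high receptors were Erbb3, Met, Fgfr2, Fgfr3 and Fgfr4 and its low ones Egfr, Igf1r and Insr. Depth was lower in the non-LRC library of all 4 mice, and its part in the spread was not tested.

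To place the receptors among their partners, 91 genes in 10 lists of ligands, relatives, adaptors, inhibitors, output genes and binding proteins were read from the same fit. Of these, 61 passed the filter, 0 of them had an adjusted p below 0.05, and 4 (6.56%, beside 5.16% of all genes tested) had an unadjusted p below 0.05, all IGF binding proteins with negative fold changes (Igfbp2, Igfbp3, Igfbp4 and Igfbp7). With the mouse as a block 3 had one (4.92%, beside 4.18% of all genes tested), so both shares were near those of all genes. Igfbp3 and Igfbp4 were still among them, Igfbp2 (unadjusted p = 0.360) and Igfbp7 (unadjusted p = 0.0538) were not, and Erbb4 joined them (unadjusted p = 0.0453, adjusted p = 1 by edgeR). Of the 61, 32 had positive and 29 negative log2 fold changes, with a median of 0.07.

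Among ligands, 4 of 11 EGF family ligands passed the filter, 3 with positive fold changes, with a list median of 0.78. Hbegf, which encodes heparin-binding EGF, had 57.6, 61.1, 105.6 and 33.0 CPM in LLRC and 50.7, 44.9, 46.7 and 27.2 CPM in non-LRC libraries. Btc, the betacellulin gene, had 43.0, 65.3, 59.6 and 67.6 CPM in LLRC and 17.2, 64.3, 6.95 and 32.8 CPM in non-LRC libraries. Both were higher in the LLRC library of all 4 mice, by 0.60 (standard error 0.39, exact permutation p = 0.286) and 0.96 (standard error 0.59, exact permutation p = 0.0857) on the fitted log2 scale, and the adjusted p was 0.9999 for each. Tgfa had a log2 fold change of -0.37, and the non-LRC library of JV621 was its highest at 70.2 CPM. Hgf, the ligand of MET, did not pass the filter and had 0, 2, 1 and 10 counts in LLRC and 20, 1, 80 and 111 counts in non-LRC libraries. Its relative Mst1, a hepatocyte-derived ligand, was also scarce, with no more than 59 counts in a library, and was fitted at -1.79 with a standard error of 1.05.

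Of 12 FGF ligands only Fgf1, Fgf2 and Fgf9 passed, with log2 fold changes of 0.12, -0.45 and -0.04. Igf1, whose product is the ligand of the scarce Igf1r, had the most counts of the ligands in every library. It stood at 373.8, 699.1, 481.8 and 807.9 CPM in LLRC and 572.2, 492.8, 393.8 and 604.4 CPM in non-LRC libraries. Its groups overlapped (log2 fold change 0.20, standard error 0.30, exact permutation p = 0.629). Igf1 is made mainly by hepatocytes in the liver, and Alb was read in both sorts at the levels given above, while the 12 hepatocyte markers had the median of -1.57 given with Fgfr4. The part of hepatocyte RNA in the level of Igf1 was not tested. Igf2, the fetal growth factor, and Ins1, an insulin gene, had no more than 5 counts in any library.

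Of the related receptors, Erbb4 had 38.2, 34.9, 12.1 and 36.2 CPM in LLRC and 21.3, 20.9, 6.79 and 17.6 CPM in non-LRC libraries. It was higher in the LLRC library of all 4 mice, with JV624 low in both sorts. Its log2 fold change was 0.87 (standard error 0.50, exact permutation p = 0.171, adjusted p = 0.9999 by edgeR). Igf2r, the scavenger receptor of IGF-2, and Fgfrl1, an FGF receptor without kinase domain, had log2 fold changes of 0.35 and -0.66. Of the co-receptors, the syndecan gene Sdc4 was read at between 839 and 1953 CPM in LLRC and between 878 and 1883 CPM in non-LRC libraries, and Sdc1 and Cd44 had log2 fold changes of -0.31 and 0.43.

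Of 17 adaptors and docking proteins 16 passed, 9 with positive and 7 with negative fold changes. The adaptor genes Crk, Gab1 and Grb7 had log2 fold changes of 0.33, -0.68 and 0.42, and Plcg1, which encodes phospholipase C gamma, -0.87. Plcg1 was lower in the LLRC library of all 4 mice, with values between 2.94 and 9.34 CPM in LLRC and between 6.31 and 21.9 CPM in non-LRC libraries. Of 17 inhibitors and phosphatases 15 passed, 11 of them with positive fold changes and a median of 0.30. Ptprj, a receptor phosphatase that acts on EGFR and MET, had 33.7, 28.6, 25.6 and 19.98 CPM in LLRC and 19.3, 20.05, 10.4 and 10.1 CPM in non-LRC libraries. It was higher in the LLRC library of all 4 mice, as was Ptprf, a phosphatase of the insulin receptor, at 165.7, 180.5, 164.4 and 138.9 CPM against 149.5, 99.4, 104.0 and 98.5 CPM. Ptprj was fitted at 0.85 (standard error 0.38) and Ptprf at 0.52 (standard error 0.25) on the log2 scale, neither past the threshold (adjusted p 0.962 and 0.993 by edgeR), and the exact permutation p was 0.0571 for both.

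Of the feedback inhibitors, the most counts fell on Errfi1 and Spry2, while others of the list, such as Spry4 with 0 to 98 counts in a library, were scarce. Errfi1, which blocks the EGF receptor kinase, stood at between 676 and 1358 CPM in LLRC and between 640 and 1886 CPM in non-LRC libraries. Spry2, an inhibitor of the RAS pathway, had between 294 and 1617 CPM in LLRC and between 326 and 1173 CPM in non-LRC libraries. Of 11 ERK output genes 8 passed, 3 with positive and 5 with negative fold changes. Egr1, an immediate early gene, was higher in the LLRC library of all 4 mice but by a log2 fold change of only 0.33 (standard error 0.48), and the other named ones, Dusp6, Ccnd1 and Epha2, had -0.12, 0.07 and -0.52. Epha2 was lower in the LLRC library of all 4 mice.

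**Figure D4:**
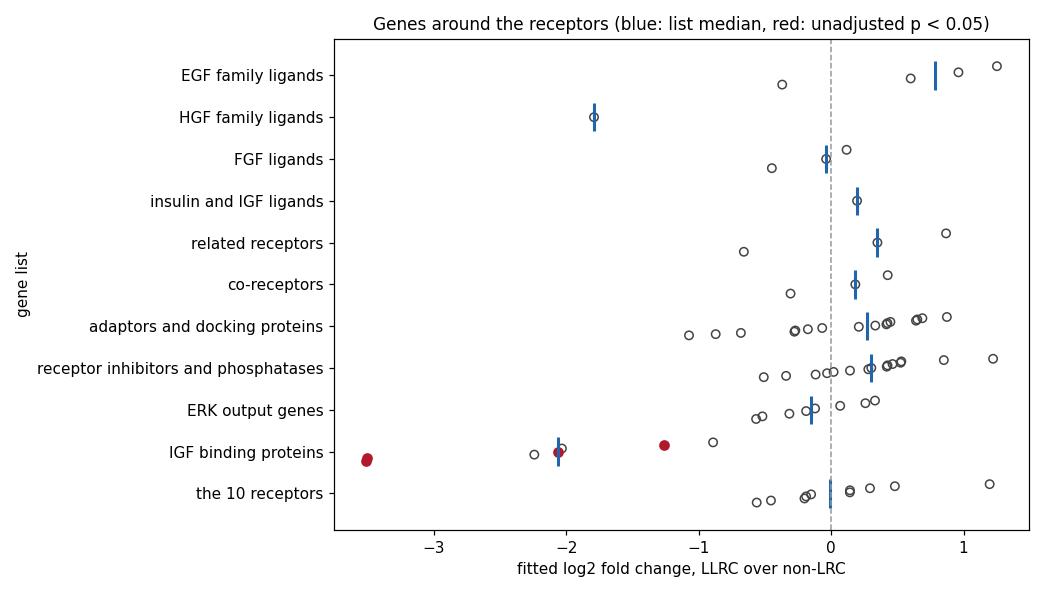
Each circle is a tested gene of a list, placed at its fitted log2 fold change, with the list median as a blue line and genes with an unadjusted p below 0.05 in red. The 7 IGF binding proteins all lie below 0, with a median of -2.06, while the medians of the other lists lie between -1.79 and 0.78.

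The IGF binding proteins were the list with the largest median difference of the 10. They hold IGF-1 and IGF-2 away from the IGF-1 receptor or carry them to it. All 7 passed the filter, and all 7 had negative log2 fold changes, between -3.51 and -0.89, with a median of -2.06 beside -0.01 over all genes tested. None passed the threshold, and the list was chosen with earlier results of these data known. By mouse the picture was less uniform. Igfbp3 and Igfbp4 were lower in the LLRC library of all 4 mice, but in JV621 Igfbp1, Igfbp2, Igfbp5 and Igfbp6 were higher in the LLRC library, and in JV602 Igfbp5 and Igfbp7 were. In the non-LRC library of JV621, Igfbp1 and Igfbp2 had 0 counts. The fitted values of all 7 were negative in each of the 19 alternatives too, which reuse the same libraries or a part of them. Their median was -2.53 without the non-LRC libraries of JV621 and JV6314 and -1.39 without the non-LRC library of JV624. Igfbp4 had 30.8, 13.4, 11.3 and 9.99 CPM in LLRC and 37.3, 47.6, 122.0 and 67.1 CPM in non-LRC libraries. Every LLRC library was below every non-LRC library, and the log2 fold change was -2.06 (standard error 0.52, 95% interval -3.24 to -0.89, unadjusted p = 0.00321, adjusted p = 0.346 by edgeR's quasi-likelihood test). The exact permutation p, which ignores the pairing by mouse, was 0.0286, the smallest that 4 against 4 libraries allow.

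Igfbp7, an IGF binding protein of vessel walls, had 51.9, 20.7, 33.97 and 21.7 CPM in LLRC and 36.3, 95.2, 109.4 and 67.1 CPM in non-LRC libraries. It was lower in LLRCs in 3 of 4 mice, with JV602 the exception (log2 fold change -1.26, standard error 0.45, adjusted p = 0.771 by edgeR). For Igfbp5 the fit gave -0.89 (standard error 0.78). Igfbp3, known from non-parenchymal liver cells, endothelial cells included, and named here after its values were seen, had 0.48, 4.38, 3.53 and 1.00 CPM in LLRC and 2.50, 37.0, 40.1 and 27.8 CPM in non-LRC libraries, and was lower in LLRCs in all 4 mice (log2 fold change -3.51, standard error 0.96, adjusted p = 0.414). DESeq2's Wald test, which called 221 genes (1.62% of those tested), and edgeR's exact test, which called 159 (1.17%), both called Igfbp3 and Igfbp4. The adjusted p for Igfbp4 was 0.00811 in DESeq2 and 0.0330 in the exact test, and for Igfbp3 0.00729 and 0.0367. None of the 10 receptors was called by either.

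The endothelial markers differed in the same direction as the binding proteins, and their summed level was lower in all 4 LLRC libraries than in any non-LRC library. Pecam1, the defining endothelial marker, had 9, 42, 1 and 20 counts in LLRC and 216, 184, 194 and 327 counts in non-LRC libraries. The summed levels of the other marker lists overlapped between groups, and over these lists together genes differed in both directions. The median log2 fold change was -3.48 over the 10 endothelial markers tested and -1.57 over the 12 hepatocyte markers. The only pancreatic acinar marker tested had -1.96, and 0 of the 11 acinar markers went the same way in all 4 mice. Of the 12 hepatocyte markers 5 were lower and 1 was higher in the LLRC library of all 4 mice, and of the 11 stellate cell and fibroblast markers 2 were lower and 0 higher, with a median log2 fold change of -1.91 over the 7 tested. Of the 10 cholangiocyte markers 0 were lower and 2 higher, with a median of 0.24, and of the 12 leukocyte and Kupffer cell markers 0 were lower and 1, Ptprc, was higher, with a median of 1.56 over the 2 tested. The 11 stellate cell and fibroblast markers summed to between 2468 and 9930 CPM in LLRC and between 3499 and 9039 CPM in non-LRC libraries, mostly from Rgs5, and Col1a1 was at or below 1.06 CPM in LLRC and at most 14.8 CPM in non-LRC libraries. The 12 leukocyte and Kupffer cell markers summed to between 12.2 and 30.7 CPM in LLRC, where 8 of the 12 were at 0 in all 4 libraries, and between 16.1 and 45.0 CPM in non-LRC libraries. CD45 itself (Ptprc) was read with 5 to 59 counts in LLRC and 0 to 7 counts in non-LRC libraries. The 10 cholangiocyte markers summed to between 113790 and 220810 CPM in LLRC and between 65877 and 161780 CPM in non-LRC libraries, mostly from Spp1. The part of other cell types in the values of the receptors and binding proteins was not tested.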

How the data were processed

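RNA-seq libraries of 4 LLRC and 4 non-LRC sorts were analysed, with groups and mice taken from the sample labels. The authors deposited raw counts per gene, made with HTSeq (version 0.5.3p9, union mode, exons, no strand) on GRCm38.p4 with the Ensembl annotation. The aligner is not given in the sources used here. Reads on exons of overlapping genes are left out by union counting, and without strand an antisense gene cannot be separated. The submitters' processing notes also name edgeR 3.2.4. A deposited table of the authors' own comparison (fold changes and p-values) was not used.

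Symbols and exon lengths came from GENCODE M21 (GRCm38) for 46005 of 46603 identifiers. Counts were filtered with filterByExpr (13605 genes), scaled by TMM (factors 0.816 to 1.23) and tested in edgeR 4.0.16 (R 4.3.3) by its quasi-likelihood test, group as the only term and Benjamini-Hochberg adjustment over all genes tested, threshold 0.05. Standard errors are the absolute log2 fold change over the square root of F, and 95% intervals use the moderated degrees of freedom. Exact two-sided permutation tests exchanged libraries freely between the groups and ignored the pairing by mouse. They used mean log2 CPM with a prior count of 0.5. Fitted values and per-library values thus come from different estimates. The quasi-likelihood test, edgeR's exact test, DESeq2 and limma were checked on simulated counts, with the same dispersion in both groups and no pairing. The permutation tests, the block for the mouse and the newer dispersion of edgeR were not checked in this way. DESeq2 1.42.0, limma 3.58.1, other filters and scalings, a block for the mouse, and leaving out single libraries were alternatives. Counting floors cover counting error only.

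The receptors, gene lists and alternatives were chosen with earlier results of these data known. All receptors were named, and of each list the 3 genes with the highest mean CPM and the one with the lowest p. Of the marker lists the summed level and the defining genes were given. Igfbp1, Igfbp2, Igfbp3, Igfbp6, Klb and Spry4 were named after their values were seen. Both libraries of a mouse came from the same animal and are paired by it. The deviations of its libraries from their group means correlated across genes at 0.0983 (JV602), 0.0514 (JV621), 3.5e-05 (JV624) and 0.152 (JV6314).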

Additional observations from a re-analysis of the deposited data

Results flagged for a closer look

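In groups of 4 libraries, the highest or lowest library was set against the others by Dixon's criterion. Of 81 groups examined for the receptors and named partner genes, 7 held a library far from the rest, where chance gives about 1 in 20. Among the receptors, Fgfr1 was at 16.9 CPM in the LLRC library of JV624, while its other LLRC libraries lay between 30.7 and 31.8 CPM. Fgfr2 was at 239.7 CPM in the non-LRC library of JV621, with the others between 73.2 and 86.5 CPM. Fgfr4 was at 28.1 CPM in the LLRC library of JV602, with the others between 7.35 and 9.23 CPM.

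Among the partner genes, Erbb4 was at 12.1 CPM in the LLRC library of JV624 (others 34.9 to 38.2 CPM) and Ptprf at 149.5 CPM in the non-LRC library of JV602 (others 98.5 to 104.0 CPM). Igfbp4 was at 30.8 CPM in the LLRC library of JV602, with the others between 9.99 and 13.4 CPM. Ins1 was at 1.04 CPM, or 5 counts, in the non-LRC library of JV621 and at 0 in the other non-LRC libraries. The cause of these values was not tested.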

How the results depend on the processing

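Across all genes the number of calls depended on the test and the libraries. It was 0 in edgeR's quasi-likelihood test (702 at an unadjusted p below 0.05), 11 with no expression filter, 221 with DESeq2, 159 with edgeR's exact test, 73 with the newer dispersion of edgeR, 1 without the non-LRC libraries of JV621 and JV6314 (an alternative chosen after seeing the data), and between 0 and 6 with 1 library left out, 6 of them without the non-LRC library of JV602. The cause was not tested. No receptor passed the adjusted threshold under any alternative. At an unadjusted p below 0.05 there was 1 receptor with limma voom (Met), 1 without the non-LRC libraries of JV621 and JV6314 (Met), and between 0 and 1 with 1 library left out. Among all genes tested there were 886 of 13605 with limma voom and 1241 of 15143 without these non-LRC libraries. With 1 library left out there were between 496 of 14105 and 1273 of 14305. Of the pathway genes, 2 were called by DESeq2 and 2 by the exact test, the same Igfbp3 and Igfbp4.

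Of 190 recomputed receptor fold changes 9 changed sign, in 4 receptors. With the mouse as a replicate block, the paired log2 fold change of Egfr was 0.05 (0.0464), and the block changed no other sign of a receptor and no call, with 0 genes past the threshold. Leaving out 1 library gave ranges of -0.45 to 0.30 for Egfr, -0.11 to 0.75 for Met, -0.75 to 0.0192 for Fgfr2 and -0.36 to 0.13 for Fgfr3. Without the non-LRC libraries of JV621 and JV6314, Fgfr2 was at 0.0469 and Fgfr3 at 0.0376. The median log2 fold change of all genes moved to 0.14 under the block and to 0.10 with limma. The other 6 receptors kept their direction under all 19 alternatives. Igf1r had 1 to 60 counts in a library, so counting error alone is large for it.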
